A study of Mus musculus with 18 samples.

Results

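Layers 5-6 (L5-6) were set against layers 2-3 (L2-3) in the neocortex of GFP mice, the mice that received the plasmid without FOXP2. The comparison rests on 6 of the 18 libraries of the series, 3 of L5-6 and 3 of L2-3, chosen by the layer and the group in the sample titles. Both layers came from the same 3 mice, so each difference was read within a mouse, and a mouse was counted as 1 replicate. The mice were of the CD-1 stock, which is outbred, and were taken at postnatal day 7. Their embryonic cortex had been electroporated in utero at E14.5. Per the labels, the tissue was microdissected from sagittal slices of 300 µm and pooled for each mouse, so a library holds the RNA of all cell types of the strip. The labels call the cells of L5-6 and of L2-3 GFP-negative and those of layer 4 (L4) GFP-positive, and they place both L5-6 and L2-3 below the granular layer. L2-3 lies above it. The promoter that drives the plasmids is not given in the sources used here. Values of L4 from the same 3 mice, and of L5-6 and L2-3 from 2 mice given human FOXP2 (huFOXP2) and 1 given mouse Foxp2 (moFoxp2), stand beside the comparison. These 3 mice are called FOXP2 mice below.

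The neocortex is built of layers that differ in the targets of their neurons. Neurons of layer 6 project mainly to the thalamus and those of layer 5 to the brainstem, spinal cord, striatum and other cortex, while neurons of layers 2 and 3 send their axons to other cortical areas in the same or the opposite hemisphere. Below layer 6 lie the subplate and the white matter, where myelin forms first, and above layer 2 lie layer 1 and the meninges. Identity of projection neurons is set by transcription factors that repress one another, among them Fezf2, Bcl11b, Tbr1 and Sox5 in deep layers and the Cux factors and the POU factors in upper layers.

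Of 15698 genes with enough reads to be tested, 3566 (22.7%) differed between L5-6 and L2-3 at an adjusted p under 0.05 (edgeR quasi-likelihood test with the mouse as a block, Benjamini-Hochberg adjustment). Of all tested genes, 1889 (12.0%) were higher in L5-6 and 1677 (10.7%) were lower. A difference of at least 2-fold was found for 719 genes (4.58%) that were higher and 530 (3.38%) that were lower. The libraries of the 2 layers did not overlap for 4310 of all tested genes (27.5%) and for 2754 of the 3566 called genes (77.2%). The sign was the same in all 3 mice for 3539 of the 3566 called genes. A call made within mice favours genes of this kind. The counts changed with the mice used: 2615 genes were higher and 2647 lower without GFP mouse 1, 1021 and 708 without GFP mouse 2, and 630 and 494 without GFP mouse 3. Without the mouse as a block 760 genes were higher and 684 lower. The 6 libraries held 12704557 to 21462671 counts. Mitochondrial transcripts took 7.50%, 4.38% and 4.90% of the counts in L5-6 of GFP mice 1, 2 and 3, and 5.03%, 3.98% and 3.73% in L2-3. The table lists 6 of the 13 mitochondrial protein genes at 0 in each of these libraries, so these shares leave them out. Below, values of a gene are CPM, counts scaled to a common library size, in GFP mice 1, 2 and 3, in this order. Differences are log2 fold changes of L5-6 over L2-3 ± SE from the same test, with adjusted p-values over all 15698 genes, and are called higher or lower where that p was under 0.05. Figures in brackets after a pair of list counts give the numbers higher and lower with the named mouse left out, where a number moved by more than 1.5 times. List counts stand beside the shares of 12.0% higher and 10.7% lower over all tested genes. Counts near these shares do not set a list apart. For the genes named with a call, the L5-6 and L2-3 libraries did not overlap, except for Bcl6, Cdh13, Cx3cr1, Dpysl3, Gabra3, Gad2, Grin2b, Igf1, Insig1, Kcnh5, Laptm5, Olig1 and mt-Cytb, whose groups overlapped across mice. Most of the named genes were chosen by small p or large fold, so the choice favoured genes without overlap. In dissected tissue, fewer cells of a type cannot be told apart from less RNA per cell.

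Deep-layer genes marked the L5-6 libraries and upper-layer genes the L2-3 libraries in each of the 3 mice. Tle4, a Groucho-family corepressor and a marker of layer 6 (ENSMUSG00000024642.16, mm10 chromosome 19, 14448150 to 14598051), had 126, 174 and 119 CPM in L5-6, against 23.4, 28.2 and 22.4 CPM in L2-3. Tle4 differed by a log2 fold change of 2.49 ± 0.10 (adjusted p = 1.03e-05). The groups lay far apart. L4 was close to L2-3 at 28.9 ± 1.28 CPM (SD, n = 3, as for the L4 means below). Pou3f2, a POU-domain factor of upper-layer neurons also called Brn2 (ENSMUSG00000095139.2, chromosome 4, 22482780 to 22488366), had 34.7, 32.4 and 43.8 CPM in L5-6, against 115, 123 and 138 CPM in L2-3 (log2 fold change -1.77 ± 0.09, adjusted p = 1.40e-05). Each L5-6 library was below each L2-3 library, and L4 stood between them at 96.1 ± 15.6 CPM. Both markers stood on the side that the layer labels give.

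**Figure D1:**
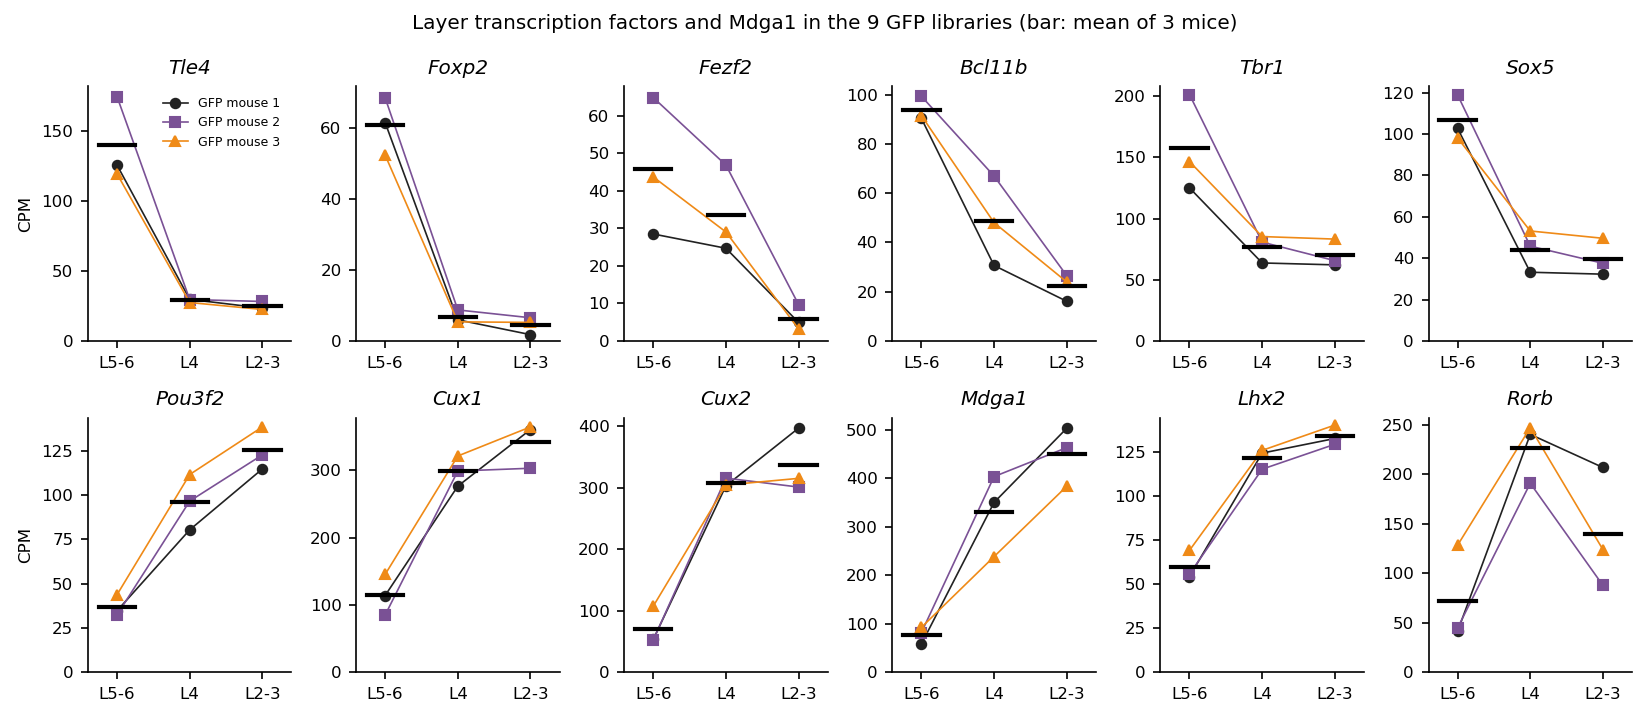
Levels (CPM, vertical axes starting at 0) of 12 genes in L5-6, L4 and L2-3 of the 3 GFP mice, with a symbol and a line for each mouse and a bar for the mean. The upper 6 genes are highest in L5-6 in each mouse, the next 5 (Pou3f2 to Lhx2) are lowest there, and Rorb, which was not called between L5-6 and L2-3, is highest in L4.

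Of 25 tested genes of layer 6 and the subplate, 21 were higher in L5-6 and 1 was lower (22 and 2 without GFP mouse 1, 21 and 0 without GFP mouse 3), with a median log2 fold change of 2.40, against a median of -0.0071 over all genes tested. Cplx3, a complexin of vesicle release that marks the subplate, had 78.1, 87.6 and 74.3 CPM in L5-6, against 3.03, 1.92 and 1.08 CPM in L2-3 (log2 fold change 5.35 ± 0.24, adjusted p = 1.03e-05; chromosome 9, 57599992 to 57606281). It was at 3.54 ± 1.48 CPM in L4, close to L2-3. Nxph3, a neurexophilin that binds alpha-neurexins, had 69.02, 109 and 71.8 CPM in L5-6, against 1.26, 3.61 and 1.21 CPM in L2-3. For Nxph3 the log2 fold change was 5.37 ± 0.32 (adjusted p = 2.80e-05). Its relative Nxph4 had 18.8, 22.5 and 18.2 CPM in L5-6, against 1.48, 2.87 and 2.93 CPM in L2-3 (log2 fold change 3.03 ± 0.28, adjusted p = 2.16e-04). Neither overlapped between the layers. Syt6, a synaptotagmin, had 104, 128 and 80.3 CPM in L5-6, against 4.397, 4.902 and 5.04 CPM in L2-3. Syt6 differed by a log2 fold change of 4.43 ± 0.21 (adjusted p = 1.03e-05). Trh, the precursor of thyrotropin-releasing hormone (chromosome 6, 92242061 to 92244650), had 10.3, 13.3 and 16.1 CPM in L5-6, against 0.171, 0.676 and 0.191 CPM in L2-3. For Trh the log2 fold change was 5.19 ± 0.38 (adjusted p = 7.25e-05), with a log2 fold change of 6.11 without GFP mouse 2. Foxp2, the forkhead factor used in the plasmids of the other mice and made by layer 6 neurons, had 61.6, 68.6 and 52.4 CPM in L5-6, 5.95, 8.75 and 5.38 CPM in L4 and 1.77, 6.54 and 5.23 CPM in L2-3 (log2 fold change 3.81 ± 0.29, adjusted p = 7.94e-05; chromosome 6, 14901349 to 15441977). In the GFP mice it was thus at a low level outside L5-6, with the highest L2-3 value in mouse 2. The nuclear receptor Nr4a2, a subplate marker, had 40.4, 41.7 and 48.97 CPM in L5-6, against 2.46, 5.52 and 9.18 CPM in L2-3. For Nr4a2 the log2 fold change was 3.01 ± 0.31 (adjusted p = 3.62e-04). Rprm, Igsf21 and Zfpm2 had log2 fold changes of 2.66 ± 0.15, 2.40 ± 0.13 and 2.51 ± 0.16 (adjusted p = 2.36e-05, 2.23e-05 and 4.38e-05). The member that went the other way was Ntsr1, a neurotensin receptor used as a marker of layer 6 neurons in the adult cortex. It had 31.2, 59.95 and 55.6 CPM in L5-6, against 84.7, 86.1 and 94.99 CPM in L2-3 and 76.9, 71.5 and 68.2 CPM in L4 (log2 fold change -0.88 ± 0.18, adjusted p = 0.0105, with an adjusted p of 0.0746 without GFP mouse 3), and the L5-6 and L2-3 libraries did not overlap.

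Of 20 tested genes of layer 5, 14 were higher in L5-6 and 2 were lower (13 and 1 without GFP mouse 2, 12 and 1 without GFP mouse 3), with a median of 1.08. Fezf2, a zinc-finger factor that specifies neurons projecting below the cortex, had 28.5, 64.9 and 43.7 CPM in L5-6, 24.7, 46.9 and 29.03 CPM in L4 and 4.91, 9.69 and 3.19 CPM in L2-3 (log2 fold change 2.96 ± 0.20, adjusted p = 5.28e-05; chromosome 14, 12342094 to 12348189). Its L4 level lay nearer to L5-6 than to L2-3 in each mouse. Bcl11b, also called Ctip2, acts downstream of Fezf2 and had 90.4, 99.4 and 91.6 CPM in L5-6, against 16.1, 26.5 and 23.97 CPM in L2-3 (log2 fold change 2.12 ± 0.17, adjusted p = 9.60e-05). Pcp4, a small calmodulin-binding protein, had 37.7, 41.6 and 34.1 CPM in L5-6, against 6.51, 4.17 and 3.38 CPM in L2-3 (log2 fold change 3.03 ± 0.17, adjusted p = 2.19e-05), the largest difference among these layer 5 genes. Otx1 and Etv1, transcription factors of layer 5, had log2 fold changes of 2.54 ± 0.18 and 1.37 ± 0.09 (adjusted p = 5.86e-05 and 4.99e-05). The 2 members that were lower were Pou3f1 (19.4, 43.2 and 64.01 CPM in L5-6, against 170.2, 148 and 176 CPM in L2-3; log2 fold change -2.05 ± 0.27, adjusted p = 0.00117) and Bcl6. Bcl6 differed by a log2 fold change of -0.50 ± 0.15 (adjusted p = 0.0386), with an adjusted p of 0.0908 without GFP mouse 2, 0.161 without GFP mouse 3, 0.132 in the 6 libraries alone and 0.185 without the mouse as a block. Pou3f1 was on the layer 2-3 list as well.

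Of 20 tested genes of layers 2 and 3, 1 was higher in L5-6 and 15 were lower (0 and 14 without GFP mouse 2), with a median of -0.96. The largest difference was that of Mdga1, a membrane-anchored protein that binds neuroligins, with 58.4, 81.8 and 92.7 CPM in L5-6, against 503, 463 and 383 CPM in L2-3 (log2 fold change -2.52 ± 0.22, adjusted p = 1.41e-04). Cux1 had 114, 85.2 and 145 CPM in L5-6, against 360.2, 303 and 364 CPM in L2-3. For Cux1 the log2 fold change was -1.60 ± 0.13 (adjusted p = 9.91e-05). Cux2, the other CUT homeodomain factor of upper layers, had 53.6, 52.6 and 108 CPM in L5-6, against 397, 301 and 316 CPM in L2-3 (log2 fold change -2.29 ± 0.24, adjusted p = 3.66e-04; chromosome 5, 121856366 to 122050102). For both, L4 was close to L2-3, at 299 ± 22.4 CPM and 308 ± 6.85 CPM. Kitl, the ligand of the receptor Kit, had 35.7, 42.7 and 72.1 CPM in L5-6, against 135, 164 and 187 CPM in L2-3 (log2 fold change -1.74 ± 0.13, adjusted p = 6.69e-05). Lhx2, a LIM homeodomain factor, had 54.4, 55.8 and 69.3 CPM in L5-6, against 133, 129 and 140.4 CPM in L2-3. Lhx2 differed by a log2 fold change of -1.17 ± 0.08 (adjusted p = 5.51e-05). Inhba, a subunit of activin, had 5.93, 5.66 and 12.7 CPM in L5-6, against 25.8, 23.6 and 34.7 CPM in L2-3 (log2 fold change -1.85 ± 0.18, adjusted p = 2.57e-04). Cdh13, the member that was higher, had 143, 211 and 175 CPM in L5-6, against 54.6, 119 and 149 CPM in L2-3. For Cdh13 the log2 fold change was 0.79 ± 0.19 (adjusted p = 0.0199), with an adjusted p of 0.121 without GFP mouse 2, 0.0668 in the 6 libraries alone and 0.209 without the mouse as a block.

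Of 9 tested genes of layer 4, 0 were higher in L5-6 and 2 were lower (2 and 2 without GFP mouse 1), with a median of -0.13. The called members were Unc5d, a netrin receptor (19.2, 39.3 and 61.5 CPM in L5-6, against 87.02, 102 and 106 CPM in L2-3; log2 fold change -1.40 ± 0.22, adjusted p = 0.00253), and the potassium channel Kcnh5, with 7.47, 12.4 and 26.01 CPM in L5-6, 16.2, 61.96 and 76.6 CPM in L4 and 21.2, 41.6 and 74.01 CPM in L2-3. For Kcnh5 the log2 fold change was -1.60 ± 0.20 (adjusted p = 8.02e-04), with an adjusted p of 0.161 without the mouse as a block. Its highest value was that of L4 in mice 2 and 3. Rorb, the nuclear receptor of layer 4 neurons, had 41.5, 44.9 and 128 CPM in L5-6, 240.1, 191 and 247 CPM in L4 and 207, 87.8 and 124 CPM in L2-3, and its log2 fold change of -1.03 ± 0.37 missed the threshold (adjusted p = 0.0771). It passed in GFP mice 1 and 2 alone (log2 fold change -1.66, adjusted p = 0.0227) and with all 18 libraries (adjusted p = 0.0397). GFP mouse 3 had its L5-6 value above its L2-3 value. In each mouse L4 had the highest Rorb value.

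Among 41 tested transcription factors of projection neuron fate, 16 were higher in L5-6 and 14 lower, with a median of -0.079. The called factors that were higher included the deep-layer factors Tbr1 (log2 fold change 1.15 ± 0.14, adjusted p = 7.03e-04), Bcl11b, Fezf2, Foxp2 and Zfpm2, with Tbr1 at 125, 201 and 147 CPM in L5-6, against 62.2, 65.6 and 83.3 CPM in L2-3. Those that were lower included Cux2, Pou3f1, Pou3f2 and Cux1, which also stand on the layer 2-3 list, and the bHLH factors Neurod1 (1.17, 2.29 and 6.63 CPM in L5-6, against 13.2, 22.3 and 29.8 CPM in L2-3; log2 fold change -2.77 ± 0.31, adjusted p = 5.70e-04) and Bhlhe22 (41.3, 84.5 and 148 CPM in L5-6, against 288, 289 and 344 CPM in L2-3; log2 fold change -1.87 ± 0.27, adjusted p = 0.00168).

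**Figure D2:**
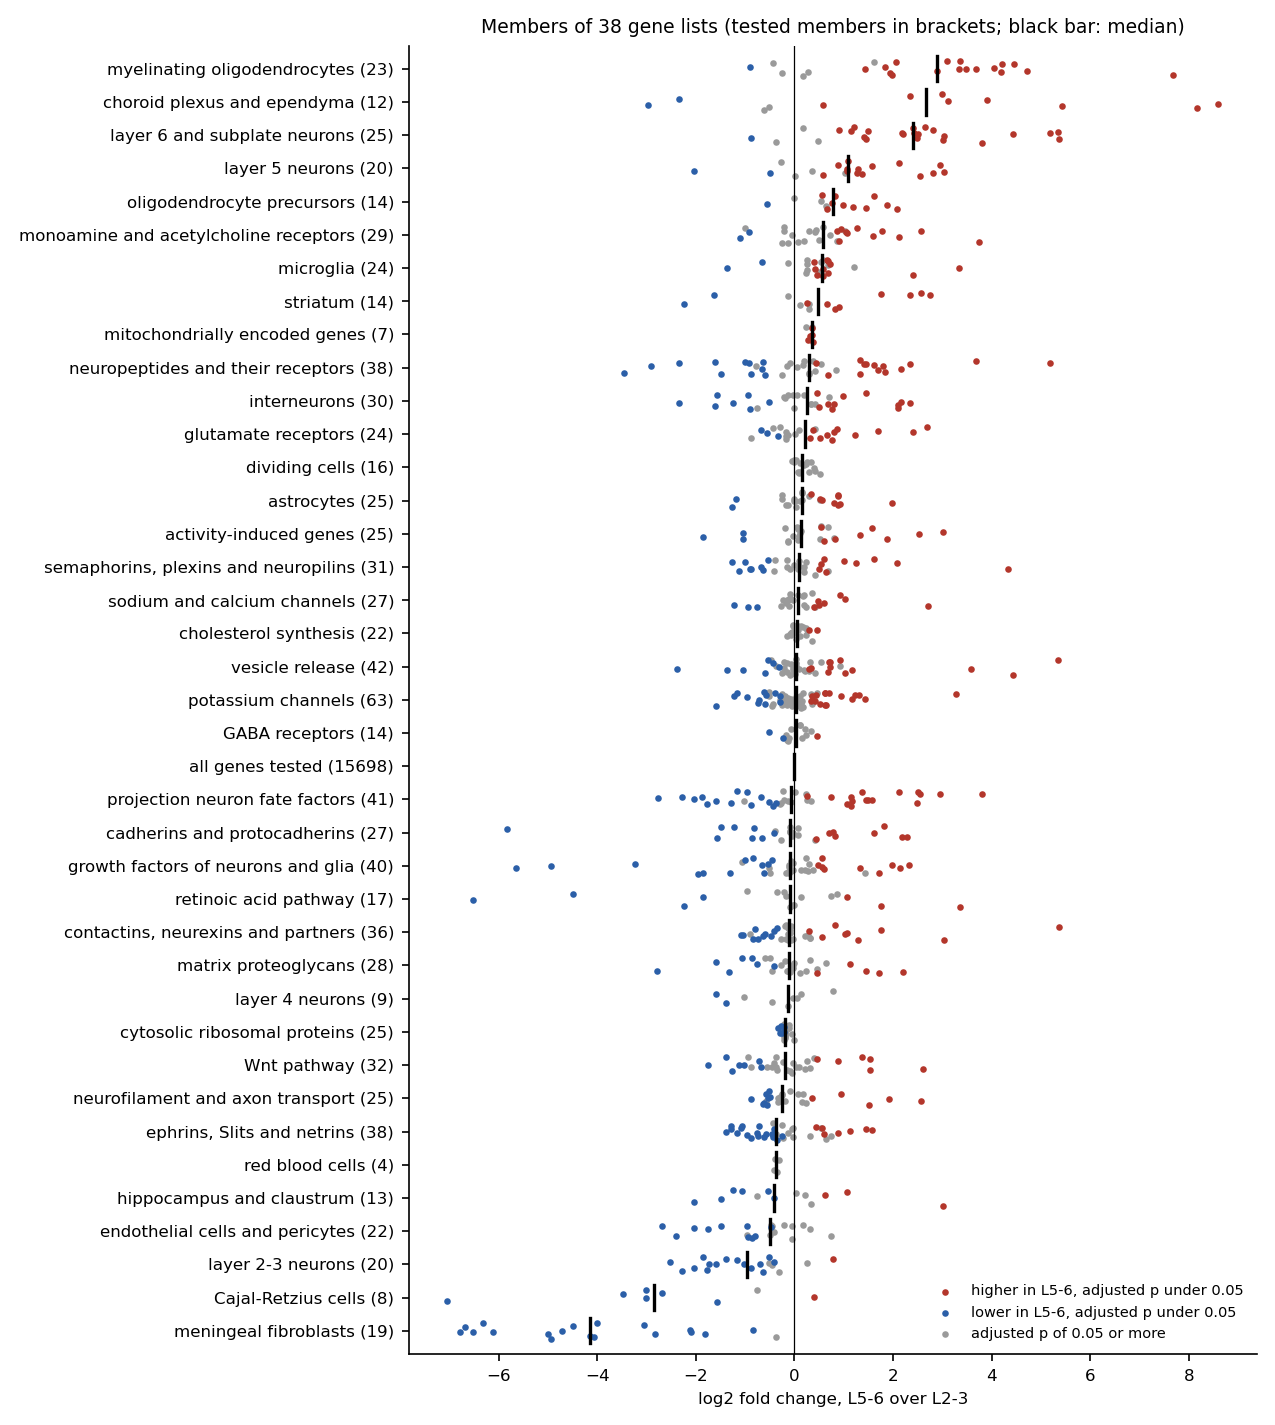
Log2 fold change of L5-6 over L2-3 (horizontal axis) for each tested member of 38 gene lists, ordered by median, with red for members higher in L5-6, blue for those lower and grey for an adjusted p of 0.05 or more. Genes of myelin, layer 6 and layer 5 lie to the right, and genes of the meninges, of Cajal-Retzius cells and of layers 2 and 3 to the left. Ccdc153 and Tmem212 (choroid plexus and ependyma) and Lhx1 (Cajal-Retzius cells) had no counts in 1 of the layers, so their points depend on the fit.

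Among the 10 genes of largest fold with a mean of at least 5 CPM that were higher in L5-6, Mobp, Enpp6, Mag, Plxnb3 and Myrf belong to oligodendrocytes and Nxph3, Cplx3, Trh and Syt6 to layer 6 and the subplate. The remaining gene was Pappa2, a protease of IGF-binding proteins, with 10.2, 17.2 and 15.1 CPM in L5-6, against 0.343, 0.563 and 0.701 CPM in L2-3. Pappa2 differed by a log2 fold change of 4.73 ± 0.28 (adjusted p = 2.80e-05). The 10 in the lower direction included 6 of the meningeal list. The remaining ones were Fam180a, Itih2, Slc13a4 and Lyve1.

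The sequence just before the first listed RefSeq start was searched in 8 of the genes named here. It is shown for Mobp, Trh and Cux2, the 3 that held the letters of SOX factors. Each is the 250 bases before the RefSeq start (GRCm38.p6, read along the gene's strand), and capitals mark the letters AACAAAG or their reverse complement CTTTGTT, a word bound by SOX factors, or CAGATG or its reverse complement CATCTG, an E-box of NEUROD factors.
Mobp (chr9:120149492-120149741, plus strand): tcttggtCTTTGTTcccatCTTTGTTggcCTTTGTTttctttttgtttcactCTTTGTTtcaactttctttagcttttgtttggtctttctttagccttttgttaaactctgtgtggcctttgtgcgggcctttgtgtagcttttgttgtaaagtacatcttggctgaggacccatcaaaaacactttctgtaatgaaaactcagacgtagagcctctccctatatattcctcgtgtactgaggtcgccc
Trh (chr6:92244651-92244900, minus strand): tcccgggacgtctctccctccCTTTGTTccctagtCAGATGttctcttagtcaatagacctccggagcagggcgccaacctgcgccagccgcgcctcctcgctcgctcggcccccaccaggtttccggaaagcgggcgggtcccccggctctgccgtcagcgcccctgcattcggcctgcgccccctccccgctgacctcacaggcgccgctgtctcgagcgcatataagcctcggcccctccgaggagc
Cux2 (chr5:122049852-122050101, minus strand): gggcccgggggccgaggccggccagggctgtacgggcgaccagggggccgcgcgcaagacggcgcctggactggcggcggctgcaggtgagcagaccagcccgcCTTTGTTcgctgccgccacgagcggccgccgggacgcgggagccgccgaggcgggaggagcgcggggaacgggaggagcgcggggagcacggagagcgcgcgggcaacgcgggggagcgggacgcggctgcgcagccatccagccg
Mobp held the SOX letters 4 times, all as CTTTGTT, and Trh and Cux2 held them 1 time each. The other 5, Tle4, Pou3f2, Cplx3, Mdga1 and Slc22a6, held none. The Mdga1 window (chromosome 17, 29887883 to 29888132) lies before an internal start, inside the annotated gene (29827949 to 29970087). The Cux2 window lies just within the annotated span of its gene. For Tle4 and Slc22a6 the bases after the RefSeq start were not found in an annotated transcript. Of 10 myelin genes called higher with a promoter in the table, 2 held these letters, Mobp among them. Of 11633 tested genes with a promoter in the table, 377 (3.24%) held these letters at least 1 time and 1, Mobp, held them 3 or more times. They stood before 28 of 507 genes (5.52%) that were higher by at least 2-fold and 14 of 367 (3.81%) that were lower. The forkhead letters TGTTTAC, or GTAAACA, stood before 18 of 507 (3.55%) and 8 of 367 (2.18%), against 2.07% of the 11633. For the POU octamer ATGCAAAT, or ATTTGCAT, the shares were 0.986%, 2.18% and 1.25%, and for the E-box 11.2%, 12.5% and 10.1%, in the same order. A match in these windows is a description of letters and not a binding site.

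Genes of myelin were higher in L5-6 in each mouse. Of 23 tested genes of myelinating oligodendrocytes, 17 were higher and 1 was lower (17 and 0 without GFP mouse 2, 17 and 0 without GFP mouse 3), with a median of 2.90, the highest of the 38 lists. Mobp, a protein of the myelin sheath (chromosome 9, 120149707 to 120181484), had 118, 13.8 and 62.6 CPM in L5-6, against 0.3997, 0.225 and 0.255 CPM in L2-3 (log2 fold change 7.68 ± 0.26, adjusted p = 5.12e-06). These are 1606, 295 and 1227 counts in L5-6 and 7, 4 and 4 counts in L2-3. Mag, a glycoprotein on the inner face of myelin, had 137, 25.7 and 61.97 CPM in L5-6, against 3.54, 2.197 and 3.19 CPM in L2-3. For Mag the log2 fold change was 4.46 ± 0.30 (adjusted p = 5.28e-05). Enpp6, a choline phosphodiesterase of newly formed oligodendrocytes, had 113, 30.4 and 53.1 CPM in L5-6, against 2.63, 1.41 and 2.996 CPM in L2-3 (log2 fold change 4.71 ± 0.25, adjusted p = 2.19e-05). Myrf, the transcription factor that switches on myelin genes, had 100.2, 30.8 and 47.9 CPM in L5-6, against 2.23, 2.704 and 3.95 CPM in L2-3. Myrf differed by a log2 fold change of 4.19 ± 0.34 (adjusted p = 1.01e-04), with a log2 fold change of 3.55 without GFP mouse 1. Bcas1, a marker of oligodendrocytes that are starting to myelinate, had 332, 106 and 143 CPM in L5-6, against 22.4, 12.6 and 17.6 CPM in L2-3 (log2 fold change 3.34 ± 0.16, adjusted p = 1.40e-05). Plxnb3, a plexin of oligodendrocytes, followed them with 73.3, 21.6 and 30.1 CPM in L5-6, against 2.17, 1.41 and 2.104 CPM in L2-3. For Plxnb3 the log2 fold change was 4.34 ± 0.23 (adjusted p = 2.05e-05). For each of these 6 genes mouse 1 had the highest L5-6 value and mouse 2 the lowest, and no L5-6 library reached down to an L2-3 library. Gsn, a gelsolin made by many cell types, was lower, with 59.3, 26.8 and 28.2 CPM in L5-6, against 71.8, 62.5 and 67.9 CPM in L2-3. For Gsn the log2 fold change was -0.90 ± 0.19 (adjusted p = 0.0104), with an adjusted p of 0.0905 without GFP mouse 2, 0.138 without GFP mouse 3, 0.0523 in the 6 libraries alone and 0.0809 without the mouse as a block. Summed over the list, the myelin level was 5540.1, 1603 and 2798 CPM in L5-6 and 605, 477 and 627 CPM in L2-3.

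Genes of the oligodendrocyte precursor list, not all of which are confined to these cells, showed the same direction at a smaller size. Of 14 tested genes, 10 were higher and 1 was lower (10 and 0 without GFP mouse 2, 9 and 0 without GFP mouse 3), with a median of 0.79. Sox10, which marks the whole lineage, had 144, 62.1 and 73.1 CPM in L5-6, against 32.03, 19.3 and 21.9 CPM in L2-3. Sox10 differed by a log2 fold change of 1.87 ± 0.11 (adjusted p = 2.56e-05). Nkx2-2, a homeodomain factor of the lineage, had 20.3, 8.61 and 11.2 CPM in L5-6, against 3.997, 2.31 and 2.93 CPM in L2-3 (log2 fold change 2.07 ± 0.20, adjusted p = 2.52e-04). Olig2, a bHLH factor, had 176, 76.1 and 97.6 CPM in L5-6, against 64.3, 39.5 and 44.7 CPM in L2-3. For Olig2 the log2 fold change was 1.18 ± 0.10 (adjusted p = 1.38e-04). Gpr17, a receptor of cells between precursor and oligodendrocyte that stands on the myelin list and not among these genes, had 725, 224 and 365 CPM in L5-6, against 128, 67.5 and 114 CPM in L2-3 (log2 fold change 1.98 ± 0.16, adjusted p = 9.72e-05). Olig1 had 472, 269 and 336 CPM in L5-6, against 283, 183 and 209 CPM in L2-3. Olig1 differed by a log2 fold change of 0.66 ± 0.07 (adjusted p = 3.66e-04), with an adjusted p of 0.14 without the mouse as a block. Susd5, the member that was lower, had 9.08, 11.98 and 16.98 CPM in L5-6, against 18.7, 17.4 and 18.7 CPM in L2-3. For Susd5 the log2 fold change was -0.56 ± 0.16 (adjusted p = 0.0346), with an adjusted p of 0.143 without GFP mouse 2, 0.0565 without GFP mouse 3, 0.142 in the 6 libraries alone, 0.176 without the mouse as a block and 0.0912 with all 18 libraries.

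Astrocyte and microglia genes were higher in smaller numbers and by less, and here mouse 1 stood apart. Of 25 astrocyte genes 9 were higher and 2 lower (10 and 7 without GFP mouse 1, 8 and 1 without GFP mouse 2, 5 and 1 without GFP mouse 3), with a median of 0.15. Ntsr2, a neurotensin receptor of astrocytes, had 79.8, 27.1 and 37.4 CPM in L5-6, against 17.99, 6.93 and 10.8 CPM in L2-3. For Ntsr2 the log2 fold change was 1.97 ± 0.12 (adjusted p = 3.00e-05). Chrdl1, a BMP antagonist secreted by astrocytes, went the other way at 18.2, 14.4 and 15.5 CPM in L5-6, against 42.8, 42.1 and 31.1 CPM in L2-3 (log2 fold change -1.26 ± 0.12, adjusted p = 1.98e-04), as did the connexin Gjb6. For Gjb6 the log2 fold change was -1.18 ± 0.27 (adjusted p = 0.0155), with an adjusted p of 0.13 without GFP mouse 2, 0.162 without GFP mouse 3 and 0.0744 in the 6 libraries alone. Aqp4, Gja1, Glul and Aldh1l1, which also define astrocytes, had log2 fold changes of -0.019, 0.014, 0.029 and -0.14 and were not called. The summed level of the astrocyte list was 10203, 5785 and 7139 CPM in L5-6 and 7462, 6072 and 6159 CPM in L2-3, so it was higher in L5-6 in mice 1 and 3 and lower in mouse 2. Of 24 microglia genes 11 were higher and 2 lower (2 and 1 without GFP mouse 3), with a median of 0.55. Cx3cr1, the fractalkine receptor, had 158, 63.3 and 81.3 CPM in L5-6, against 78.6, 47.7 and 52.7 CPM in L2-3. Cx3cr1 differed by a log2 fold change of 0.68 ± 0.12 (adjusted p = 0.00542), with an adjusted p of 0.0603 without GFP mouse 3 and 0.264 without the mouse as a block. Itgax, an integrin of microglia of early white matter, had 2.198, 1.36 and 1.48 CPM in L5-6, against 0.0571, 0.113 and 0.319 CPM in L2-3. For Itgax the log2 fold change was 3.33 ± 0.52 (adjusted p = 0.00264), with a log2 fold change of 2.72 without GFP mouse 1 and 4.23 without GFP mouse 3. Laptm5, a lysosomal membrane protein, had 102, 46.7 and 51.7 CPM in L5-6, against 57.1, 37.9 and 34.7 CPM in L2-3. For Laptm5 the log2 fold change was 0.57 ± 0.11 (adjusted p = 0.0061), with an adjusted p of 0.0964 without GFP mouse 3 and 0.311 without the mouse as a block. Lpl, a lipase, and Igf1, the growth factor, are made by other cells too and were lower (log2 fold change -1.36 ± 0.14, adjusted p = 4.04e-04 and log2 fold change -0.65 ± 0.10, adjusted p = 0.00283, with an adjusted p of 0.0647 without GFP mouse 3 and 0.138 without the mouse as a block). The microglia list summed to 1371, 728 and 832 CPM in L5-6 and 963, 793 and 806 CPM in L2-3. Without GFP mouse 1, which held the most mitochondrial transcripts in L5-6, 8 microglia genes were higher and 2 lower, with a median of 0.35. Without the mouse as a block 2 were higher and 1 lower.

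The meningeal list had the lowest median of the 38 lists. Of 19 tested genes of meningeal fibroblasts, 0 were higher in L5-6 and 18 lower, with a median of -4.14. Aldh1a2, the enzyme that makes retinoic acid in the meninges, had 0.2198, 0.562 and 0.255 CPM in L5-6, against 8.85, 45.5 and 38.5 CPM in L2-3 (log2 fold change -6.51 ± 0.30, adjusted p = 1.03e-05; chromosome 9, 71215789 to 71296243). Dcn, the matrix proteoglycan decorin, had 0.952, 1.68 and 0.969 CPM in L5-6, against 40.4, 131 and 108 CPM in L2-3 (log2 fold change -6.32 ± 0.29, adjusted p = 1.03e-05). These 2 genes were below 2 CPM in L5-6 of all 3 mice, and in L2-3 mouse 1 had the lowest values. Slc22a6, an organic anion transporter, had 0.0733, 0.608 and 0.204 CPM in L5-6, against 13.02, 46.1 and 38.5 CPM in L2-3. Slc22a6 differed by a log2 fold change of -6.79 ± 0.31 (adjusted p = 1.03e-05), with a log2 fold change of -7.47 without GFP mouse 2. Slc6a13, a GABA and taurine transporter, had 0.806, 0.796 and 0.204 CPM in L5-6, against 16.7, 54.4 and 44.3 CPM in L2-3. For Slc6a13 the log2 fold change was -6.13 ± 0.50 (adjusted p = 1.05e-04), with a log2 fold change of -5.49 without GFP mouse 3. Ptgds, which makes prostaglandin D2, had 1.98, 8.05 and 3.77 CPM in L5-6, against 10.3, 803 and 906 CPM in L2-3. For Ptgds the log2 fold change was -6.68 ± 0.70 (adjusted p = 3.66e-04), with a log2 fold change of -5.52 without GFP mouse 3. Mouse 1 had by far the least Ptgds in L2-3, and its L2-3 value was close to the highest L5-6 value. Ogn, osteoglycin, had 1.32, 0.749 and 0.459 CPM in L5-6, against 5.25, 46.6 and 32.2 CPM in L2-3 (log2 fold change -5.01 ± 0.61, adjusted p = 7.67e-04, with a log2 fold change of -6.01 without GFP mouse 1, -4.20 without GFP mouse 2 and -4.28 without GFP mouse 3), with mouse 1 again lowest in L2-3. Col1a1, a chain of fibrillar collagen, had 4.54, 12.2 and 2.81 CPM in L5-6, against 75.6, 244 and 167 CPM in L2-3 (log2 fold change -4.72 ± 0.31, adjusted p = 4.79e-05). Igf2, a growth factor of the meninges, had 1.099, 1.26 and 0.5101 CPM in L5-6, against 13.3, 37.8 and 33.5 CPM in L2-3. Igf2 differed by a log2 fold change of -4.93 ± 0.38 (adjusted p = 9.04e-05).

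The remaining genes among the 10 of largest fold were not on the list. Fam180a had 0, 2 and 0 counts in L5-6 and 61, 394 and 316 counts in L2-3, a ratio of 413 of L2-3 over L5-6 with an exact 95% interval of 114 to 3419 that covers counting error only. Itih2, a heavy chain of inter-alpha-trypsin inhibitor, had 0.0733, 0.608 and 0.306 CPM in L5-6, against 5.02, 25.2 and 20.97 CPM in L2-3 (log2 fold change -5.61 ± 0.34, adjusted p = 3.00e-05). Slc13a4, a sulfate transporter, had 0.806, 1.03 and 0.714 CPM in L5-6, against 5.48, 54.2 and 56.4 CPM in L2-3. For Slc13a4 the log2 fold change was -5.45 ± 0.43 (adjusted p = 9.60e-05), with a log2 fold change of -4.75 without GFP mouse 3. Lyve1, a hyaluronan receptor of lymphatic endothelium and of macrophages at borders of the brain, had 0.4396, 0.608 and 0.459 CPM in L5-6, against 8.22, 33.7 and 14.4 CPM in L2-3 (log2 fold change -5.23 ± 0.33, adjusted p = 3.91e-05). The summed level of the meningeal list was 251, 202 and 225 CPM in L5-6 and 752, 2508 and 2296 CPM in L2-3, lowest in L2-3 of mouse 1. Its part in the L2-3 levels of other genes was not tested.

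Vessel genes were also lower in L5-6. Of 22 genes of endothelial cells and pericytes, 0 were higher and 10 lower (0 and 16 without GFP mouse 1, 1 and 4 without GFP mouse 2, 0 and 4 without GFP mouse 3), with a median of -0.49. Cldn5, a tight junction protein, had 103, 62.01 and 82.3 CPM in L5-6, against 182, 141 and 148 CPM in L2-3. Cldn5 differed by a log2 fold change of -0.95 ± 0.11 (adjusted p = 7.30e-04). Cdh5, the cadherin of endothelium, had 32.6, 22.7 and 22.3 CPM in L5-6, against 56.1, 85.4 and 71.97 CPM in L2-3 (log2 fold change -1.48 ± 0.20, adjusted p = 0.00128). The lowest L2-3 values of Cldn5 and Cdh5 stood above the highest L5-6 values. Vtn, vitronectin of pericytes, had 44.4, 28.3 and 29.4 CPM in L5-6, against 99.1, 167 and 149 CPM in L2-3. For Vtn the log2 fold change was -2.04 ± 0.24 (adjusted p = 6.54e-04). Acta2, the smooth muscle actin, had 10.1, 1.73 and 1.22 CPM in L5-6, against 22.4, 21.01 and 21.9 CPM in L2-3. For Acta2 the log2 fold change was -2.70 ± 0.52 (adjusted p = 0.00727), with a log2 fold change of -3.86 without GFP mouse 1 and an adjusted p of 0.0538 without GFP mouse 2 and 0.0852 without GFP mouse 3. The vessel list summed to 1060.3, 651 and 732 CPM in L5-6 and 1189, 1352 and 1164 CPM in L2-3. Of the 4 tested genes of red blood cells, 0 were called by edgeR and 0 by DESeq2, 0 had an unadjusted p under 0.05 in edgeR, and their log2 fold changes lay between -0.42 (Hbb-bs) and -0.32 (Hba-a1). Without GFP mouse 1 all 4 were lower.

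Genes of Cajal-Retzius cells, the reelin-secreting neurons of layer 1, were lower in L5-6 as well. Of 8 tested genes 1 was higher and 6 were lower (0 and 6 without GFP mouse 2, 0 and 6 without GFP mouse 3), with a median of -2.85. Reln itself had 53.5, 113 and 127 CPM in L5-6, against 166, 349 and 348 CPM in L2-3 (log2 fold change -1.57 ± 0.10, adjusted p = 3.01e-05), and interneurons make it too. Ndnf, a secreted factor of layer 1 neurons, had 8.28, 5.99 and 8.88 CPM in L5-6, against 36.9, 74.9 and 76.9 CPM in L2-3. Ndnf differed by a log2 fold change of -3.01 ± 0.27 (adjusted p = 1.76e-04). Trp73, a relative of p53 that marks these cells, had 1.98, 1.26 and 0.459 CPM in L5-6, against 5.77, 9.803 and 6.95 CPM in L2-3 (log2 fold change -2.70 ± 0.36, adjusted p = 0.00126). Ebf3 had 0.2198, 0.328 and 0.102 CPM in L5-6, against 2.17, 2.99 and 2.17 CPM in L2-3. For Ebf3 the log2 fold change was -3.47 ± 0.35 (adjusted p = 3.24e-04). Lhx1 had no counts in the 3 L5-6 libraries and 13, 23 and 12 counts in L2-3, so it was at least 17.2-fold lower in L5-6 (against 3 counts over the group). Cacna2d2, the gene that was higher, is a channel subunit found in other neurons as well. For Cacna2d2 the log2 fold change was 0.40 ± 0.10 (adjusted p = 0.0236), with an adjusted p of 0.0988 without GFP mouse 2, 0.318 without GFP mouse 3, 0.0937 in the 6 libraries alone and 0.131 without the mouse as a block. The Cajal-Retzius list summed to 90.1, 155 and 181 CPM in L5-6 and 247, 474 and 473 CPM in L2-3.

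**Figure D3:**
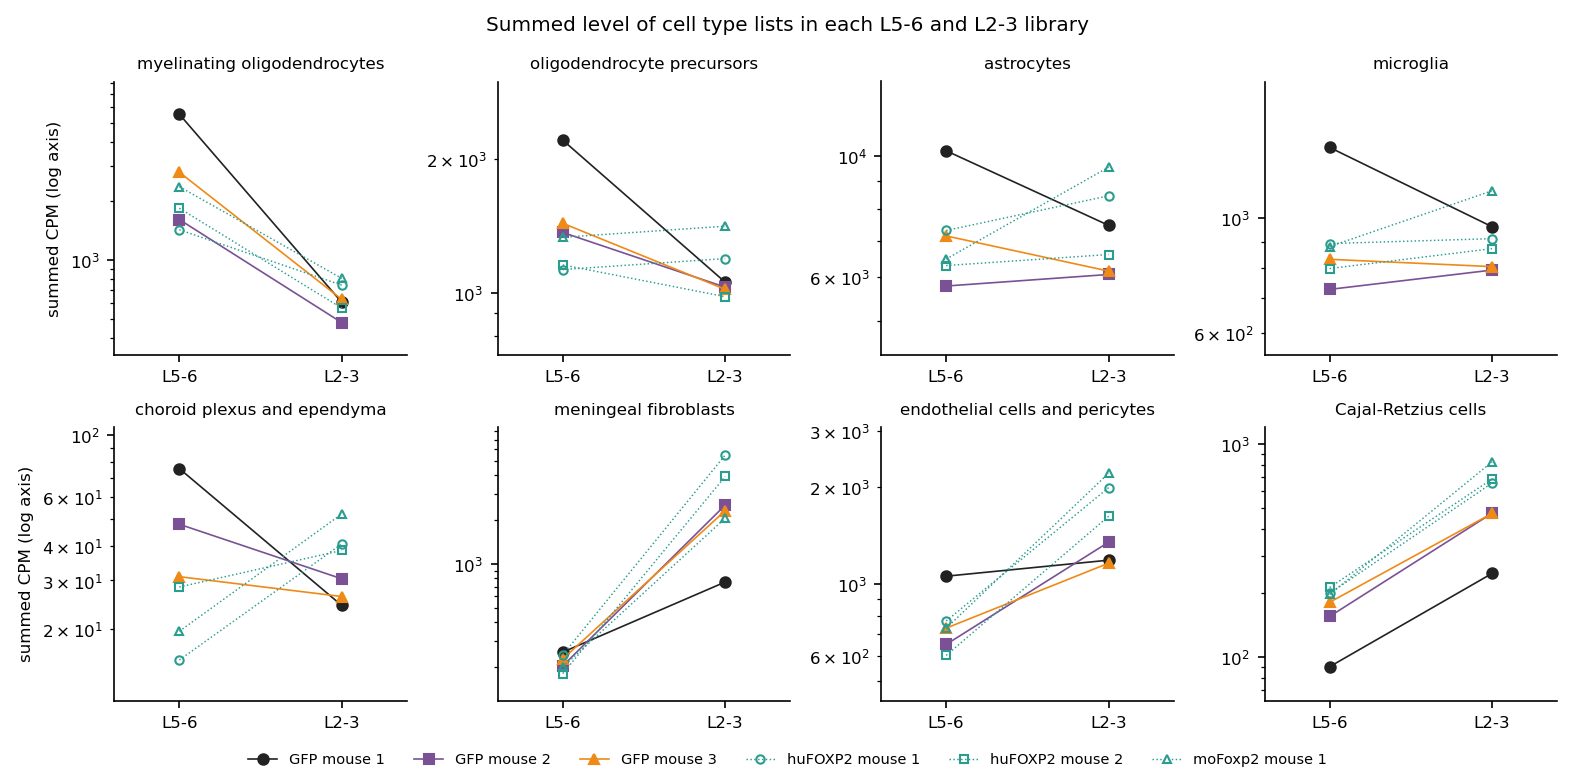
Summed CPM (log axes) of 8 cell type lists in the L5-6 and L2-3 libraries of 3 GFP mice (filled symbols) and 3 FOXP2 mice (open symbols, dotted lines), with a line for each mouse. Myelin genes are higher in L5-6, and meningeal, vessel and Cajal-Retzius genes lower, in each of the 6 mice, while astrocyte, microglia and ependymal genes differ between mice.

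Genes of ciliated ependymal cells were found in L5-6. Of 12 tested genes of choroid plexus and ependyma, 8 were higher and 2 lower (7 and 1 without GFP mouse 3), with a median of 2.67. Foxj1, the master factor of motile cilia, had 27.2, 13.5 and 10.5 CPM in L5-6, against 3.37, 3.44 and 2.81 CPM in L2-3. Foxj1 differed by a log2 fold change of 2.34 ± 0.37 (adjusted p = 0.00278). Dynlrb2, a dynein light chain of cilia, had 3.08, 1.498 and 1.22 CPM in L5-6, against 0.0571, 0.113 and 0.191 CPM in L2-3. For Dynlrb2 the log2 fold change was 3.91 ± 0.55 (adjusted p = 0.0016), with a log2 fold change of 3.13 without GFP mouse 1 and 4.59 without GFP mouse 3. Ak7, an adenylate kinase of cilia, had 9.01, 3.604 and 1.79 CPM in L5-6, against 0.171, 0.0563 and 0.0637 CPM in L2-3. For Ak7 the log2 fold change was 5.44 ± 0.73 (adjusted p = 0.00127). Ccdc153 had 74, 47 and 26 counts in L5-6 and none in L2-3, which makes it at least 45.7-fold higher (against 3 counts over the group), and Tmem212, with 56, 43 and 12 counts against none, was at least 34.5-fold higher. Lower in L5-6 were the water channel Aqp1, with 1.03, 1.08 and 0.714 CPM in L5-6, against 4.51, 8.51 and 9.05 CPM in L2-3 (log2 fold change -2.97 ± 0.30, adjusted p = 3.21e-04), and klotho (Kl), with 0.513, 0.281 and 0.663 CPM in L5-6, against 1.14, 2.14 and 4.08 CPM in L2-3. For Kl the log2 fold change was -2.33 ± 0.35 (adjusted p = 0.00205), with an adjusted p of 0.0705 without GFP mouse 3. Both are known from the choroid plexus rather than from cilia. The list of choroid plexus and ependyma summed to 75.9, 47.8 and 30.96 CPM in L5-6 and 24.4, 30.4 and 26.3 CPM in L2-3.

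Of 14 tested genes of striatal neurons, 8 were higher and 2 lower (4 and 2 without GFP mouse 3), with a median of 0.48. Ppp1r1b, the dopamine-regulated phosphoprotein DARPP-32, had 73.9, 35.1 and 52.2 CPM in L5-6, against 11.1, 4.902 and 8.16 CPM in L2-3. Ppp1r1b differed by a log2 fold change of 2.74 ± 0.14 (adjusted p = 1.90e-05). Drd2, a dopamine receptor, had 6.15, 2.25 and 4.54 CPM in L5-6, against 0.571, 0.901 and 0.574 CPM in L2-3. For Drd2 the log2 fold change was 2.56 ± 0.40 (adjusted p = 0.00275), with a log2 fold change of 3.20 without GFP mouse 2 and an adjusted p of 0.0546 without GFP mouse 3. The orphan receptor Gpr6 was lower in L5-6, at 2.49, 1.31 and 5.56 CPM in L5-6, against 14.3, 11.2 and 16.3 CPM in L2-3 (log2 fold change -2.24 ± 0.27, adjusted p = 8.01e-04). Adora2a and Penk, defining genes of striatal neurons, had log2 fold changes of 0.11 and 0.30 and were not called. Of 13 genes of the hippocampus, claustrum and neighbouring areas 3 were higher and 6 lower (3 and 3 without GFP mouse 3), with a median of -0.42. Grp, gastrin-releasing peptide, had 7.25, 13.2 and 11.1 CPM in L5-6, against 24.1, 35.4 and 28.7 CPM in L2-3. For Grp the log2 fold change was -1.49 ± 0.14 (adjusted p = 2.06e-04).

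Interneuron genes went both ways. Of 30 tested genes 11 were higher and 7 lower (6 and 6 without GFP mouse 2, 5 and 4 without GFP mouse 3), with a median of 0.26. Sst, the peptide somatostatin of interneurons that contact dendrites, had 69.5, 77.7 and 108 CPM in L5-6, 34.7, 43.1 and 50.5 CPM in L4 and 17.4, 18.8 and 19.6 CPM in L2-3 (log2 fold change 2.17 ± 0.11, adjusted p = 1.40e-05). Npy, neuropeptide Y, had 46.01, 32.2 and 47.9 CPM in L5-6, against 16.6, 13.5 and 15.4 CPM in L2-3. Npy differed by a log2 fold change of 1.46 ± 0.12 (adjusted p = 9.72e-05). Vip, the peptide of interneurons that contact other interneurons, had 4.396, 3.88 and 6.83 CPM in L5-6, 24.9, 23.3 and 19.5 CPM in L4 and 34.7, 24.3 and 20.2 CPM in L2-3 (log2 fold change -2.35 ± 0.24, adjusted p = 3.66e-04). Crh, corticotropin-releasing hormone, had 1.69, 1.54 and 2.14 CPM in L5-6, against 6.85, 4.39 and 5.48 CPM in L2-3. For Crh the log2 fold change was -1.60 ± 0.19 (adjusted p = 7.05e-04). For Sst, L4 lay between the layers, and for Vip it lay near L2-3. The 2 genes of GABA synthesis, Gad1 and Gad2, had log2 fold changes of -0.034 and 0.51, of which Gad2 was called. For Gad2 the log2 fold change was 0.51 ± 0.12 (adjusted p = 0.0179), with an adjusted p of 0.135 without GFP mouse 3, 0.0576 in the 6 libraries alone and 0.116 without the mouse as a block.

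Of 38 tested neuropeptides and peptide receptors, 14 were higher and 11 lower (10 and 4 without GFP mouse 3), with a median of 0.30. Trh, Sst and Npy were among those higher and Tac2, Vip, Crh and Grp among those lower. Tac2, the precursor of neurokinin B, had 0.513, 0.515 and 1.28 CPM in L5-6, against 12.4, 6.82 and 7.78 CPM in L2-3. Tac2 differed by a log2 fold change of -3.45 ± 0.32 (adjusted p = 2.22e-04), with a log2 fold change of -4.10 without GFP mouse 3. Oprk1, the kappa opioid receptor, had 6.23, 7.77 and 5.92 CPM in L5-6, against 0.343, 0.394 and 0.829 CPM in L2-3 (log2 fold change 3.69 ± 0.36, adjusted p = 2.71e-04). Bdnf, the neurotrophin, had 2.86, 3.98 and 4.34 CPM in L5-6, against 1.03, 1.63 and 1.78 CPM in L2-3. For Bdnf the log2 fold change was 1.33 ± 0.23 (adjusted p = 0.00402).

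Monoamine and acetylcholine receptors were more often higher than lower in L5-6. Of 29 tested genes 11 were higher and 2 lower (7 and 2 without GFP mouse 3), with a median of 0.57. Htr1f, a serotonin receptor, had 1.69, 2.995 and 2.703 CPM in L5-6, against 0.0571, 0.225 and 0.255 CPM in L2-3 (log2 fold change 3.75 ± 0.35, adjusted p = 2.29e-04). Chrna5, the accessory subunit of nicotinic receptors of layer 6 neurons, had 1.61, 3.56 and 2.45 CPM in L5-6, against 0.514, 0.845 and 0.829 CPM in L2-3. Chrna5 differed by a log2 fold change of 1.78 ± 0.24 (adjusted p = 0.00127). Both are receptors at low levels, and mouse 1 had the lowest value in L5-6. Chrm2, a muscarinic receptor, had 9.96, 15.3 and 18.3 CPM in L5-6, against 5.94, 6.37 and 8.54 CPM in L2-3 (log2 fold change 1.05 ± 0.14, adjusted p = 0.0011). Adra2a, a receptor of noradrenaline, had 25.9, 38.5 and 32.4 CPM in L5-6, against 12.05, 17.5 and 16.96 CPM in L2-3. For Adra2a the log2 fold change was 1.06 ± 0.13 (adjusted p = 7.03e-04). Those higher in L5-6 thus included receptors of serotonin, acetylcholine and noradrenaline. The 2 that were lower were Htr7, a serotonin receptor, and Chrm1, another muscarinic receptor. Htr7 had 7.69, 21.2 and 11.99 CPM in L5-6, against 21.9, 37.4 and 26.1 CPM in L2-3. For Htr7 the log2 fold change was -1.10 ± 0.17 (adjusted p = 0.00237), with an adjusted p of 0.0957 without the mouse as a block. Chrm1 had 49.1, 80.8 and 93.5 CPM in L5-6, against 143, 116 and 156 CPM in L2-3. Chrm1 differed by a log2 fold change of -0.92 ± 0.17 (adjusted p = 0.00535).

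Of 24 glutamate receptor genes 11 were higher and 3 lower (15 and 5 without GFP mouse 1, 7 and 1 without GFP mouse 3), with a median of 0.21. Grik3, a kainate receptor subunit (chromosome 4, 125490700 to 125714173), had 202, 256 and 230.4 CPM in L5-6, against 28.3, 39.5 and 40.03 CPM in L2-3 (log2 fold change 2.69 ± 0.09, adjusted p = 5.12e-06), among the smallest p-values of all tested genes. Grm8, a metabotropic receptor, had 12.1, 20.6 and 16.1 CPM in L5-6, against 3.597, 5.75 and 5.61 CPM in L2-3 (log2 fold change 1.70 ± 0.15, adjusted p = 1.41e-04). Grin2c, an NMDA receptor subunit, had 11.4, 5.52 and 6.73 CPM in L5-6, against 2.91, 0.845 and 1.02 CPM in L2-3 (log2 fold change 2.41 ± 0.22, adjusted p = 2.08e-04), while Grin2b, the subunit that dominates in the young cortex, was lower at 268, 527 and 473 CPM in L5-6, against 365, 767 and 752 CPM in L2-3. For Grin2b the log2 fold change was -0.55 ± 0.08 (adjusted p = 0.00185), with an adjusted p of 0.0809 without GFP mouse 3 and 0.404 without the mouse as a block. Mouse 1 had the lowest Grin2b value in both layers. Of 14 GABA receptor genes 1 was higher, Gabra3 (log2 fold change 0.46 ± 0.08, adjusted p = 0.00465, with an adjusted p of 0.0607 without GFP mouse 2, 0.0693 without GFP mouse 3 and 0.219 without the mouse as a block), and 2 were lower, among them Gabra4 (log2 fold change -0.51 ± 0.10, adjusted p = 0.00754, with an adjusted p of 0.0686 without GFP mouse 2, 0.0622 in the 6 libraries alone and 0.0877 without the mouse as a block), with a median of 0.026 (5 and 3 without GFP mouse 1, 0 and 0 without GFP mouse 2, 0 and 1 without GFP mouse 3). These GABA receptor counts are near the shares of 12.0% and 10.7% over all tested genes.

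Ion channels went both ways. Of 63 potassium and HCN channel genes 16 were higher and 12 lower (8 and 8 without GFP mouse 2, 6 and 7 without GFP mouse 3), with a median of 0.029. Kcna1, a channel of axons, had 16.6, 20.1 and 15 CPM in L5-6, against 0.971, 2.54 and 1.91 CPM in L2-3 (log2 fold change 3.28 ± 0.24, adjusted p = 6.69e-05). Kcnab1, a partner subunit of that channel family, had 42.3, 54.5 and 49.1 CPM in L5-6, against 16.2, 22.7 and 20.1 CPM in L2-3. Kcnab1 differed by a log2 fold change of 1.31 ± 0.09 (adjusted p = 5.32e-05). Kcnc4 had 50.1, 73.1 and 54.5 CPM in L5-6, against 17.6, 24.4 and 23.7 CPM in L2-3 (log2 fold change 1.43 ± 0.12, adjusted p = 1.15e-04). These 3 channel genes were lowest in L5-6 in mouse 1 or 3 and still clear of L2-3. Hcn4, a channel opened by hyperpolarization, was lower at 15.7, 28.5 and 31.6 CPM in L5-6, against 45.1, 56.7 and 65.7 CPM in L2-3. For Hcn4 the log2 fold change was -1.17 ± 0.11 (adjusted p = 2.31e-04). Of 27 sodium and calcium channel genes 7 were higher and 3 lower (13 and 4 without GFP mouse 1, 4 and 2 without GFP mouse 3), with a median of 0.069. Scn4b, a sodium channel beta subunit, had 7.84, 3.23 and 3.93 CPM in L5-6, against 0.685, 0.507 and 1.02 CPM in L2-3 (log2 fold change 2.71 ± 0.31, adjusted p = 5.88e-04). The auxiliary calcium channel subunits Cacnb4 and Cacna2d3 were higher (log2 fold change 1.03 ± 0.09, adjusted p = 1.19e-04, and log2 fold change 0.93 ± 0.11, adjusted p = 7.62e-04), and Cacna2d1 was lower at 158, 261 and 281 CPM in L5-6, against 367, 464 and 487 CPM in L2-3. Cacna2d1 differed by a log2 fold change of -0.95 ± 0.09 (adjusted p = 2.86e-04).

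**Figure D4:**
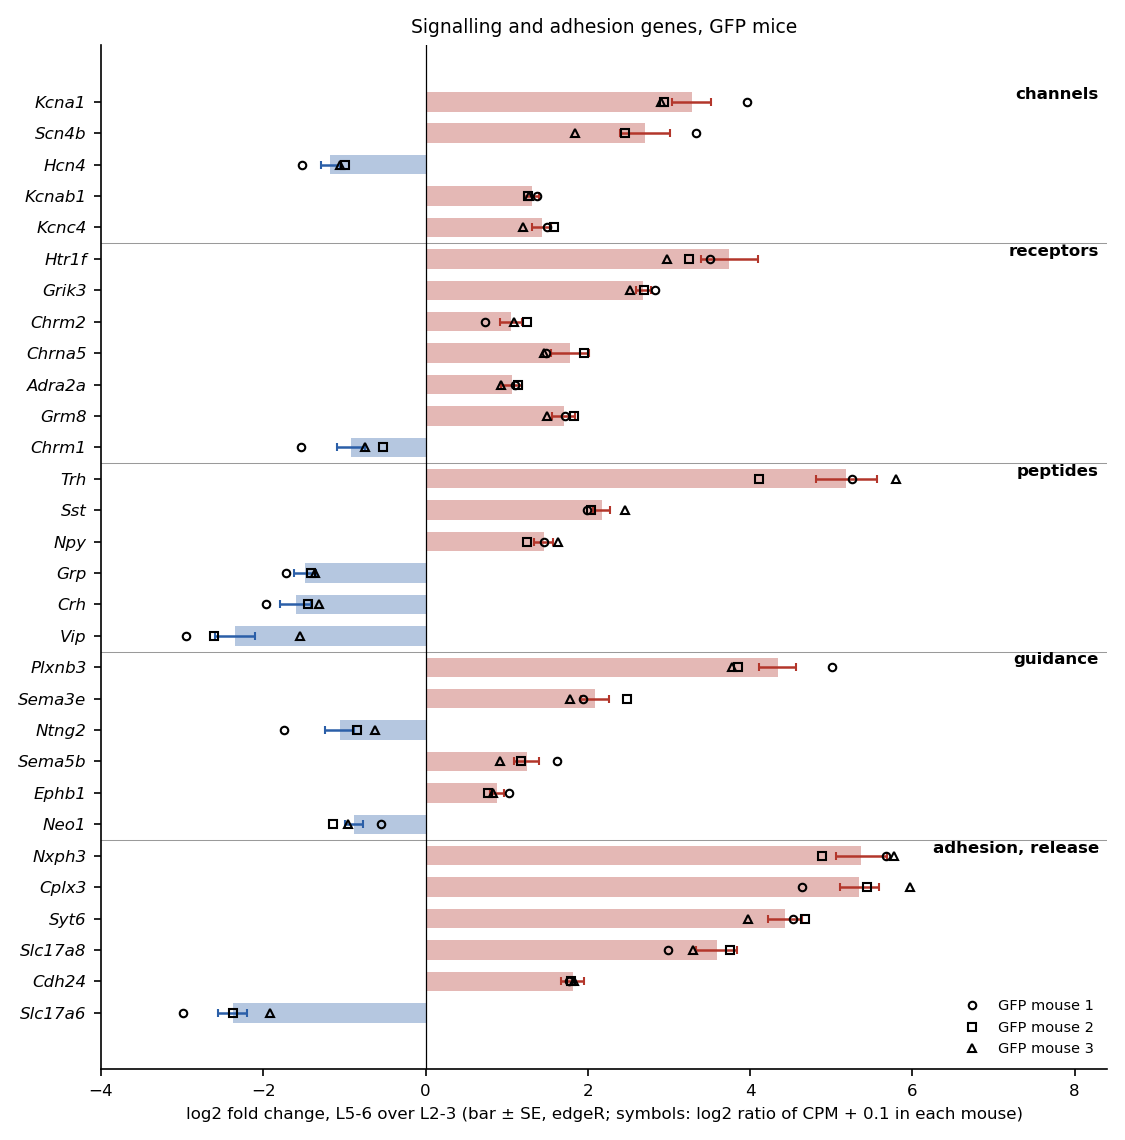
Log2 fold change of L5-6 over L2-3 (horizontal axis, bars with SE from edgeR, red for higher and blue for lower in L5-6) for 30 channel, receptor, peptide, guidance, adhesion and release genes, with a symbol for the log2 ratio of CPM + 0.1 in each of the 3 GFP mice. The log2 fold changes run from Nxph3 and Cplx3 (5.37 and 5.35) to Slc17a6 and Vip (-2.38 and -2.35). The 3 mice lie on the same side of 0 for each gene, which was a condition for choosing genes from the lists.

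Neurofilament chains and a kinesin were higher in L5-6, and proteins of growing neurites lower. Of 25 genes of neurofilaments, the axonal cytoskeleton and transport, 5 were higher and 8 lower (3 and 1 without GFP mouse 3), with a median of -0.26. Nefm, the medium neurofilament chain, had 310.2, 455 and 401 CPM in L5-6, 189.9, 214 and 224 CPM in L4 and 66.2, 67.9 and 61.6 CPM in L2-3 (log2 fold change 2.56 ± 0.11, adjusted p = 1.03e-05). Nefl, the light chain, had 203, 333 and 270.5 CPM in L5-6, against 65.6, 81.2 and 63.1 CPM in L2-3. For Nefl the log2 fold change was 1.93 ± 0.11 (adjusted p = 2.80e-05). Both stood between the other layers in L4, where Nefl had 183, 207 and 199 CPM. Kif1a, a kinesin motor of axonal transport, had 3926, 3487 and 3241 CPM in L5-6, against 1754, 1872 and 1869.8 CPM in L2-3 (log2 fold change 0.95 ± 0.09, adjusted p = 2.26e-04). Dcx, doublecortin of young neurons, had 465, 701 and 711 CPM in L5-6, against 822, 1391 and 1292 CPM in L2-3. Dcx differed by a log2 fold change of -0.89 ± 0.07 (adjusted p = 1.13e-04), with an adjusted p of 0.0602 without the mouse as a block. Dpysl3, a collapsin response mediator, had 1789, 3067 and 2601 CPM in L5-6, against 2846, 4143 and 3833 CPM in L2-3. For Dpysl3 the log2 fold change was -0.55 ± 0.09 (adjusted p = 0.00272), with an adjusted p of 0.0852 without GFP mouse 3 and 0.203 without the mouse as a block. Mouse 1 had the lowest values of Dcx and Dpysl3 in both layers.

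In the list of vesicle release, 12 of 42 genes were higher and 7 lower (19 and 9 without GFP mouse 1, 7 and 4 without GFP mouse 2, 7 and 3 without GFP mouse 3), with a median of 0.037. The vesicular glutamate transporters went different ways. Slc17a8 (VGLUT3) had 7.03, 15.7 and 4.03 CPM in L5-6, against 0.799, 1.07 and 0.319 CPM in L2-3 (log2 fold change 3.59 ± 0.25, adjusted p = 5.91e-05) and Slc17a7 (VGLUT1) had 523, 983 and 801 CPM in L5-6, against 392, 334 and 383 CPM in L2-3. For Slc17a7 the log2 fold change was 1.02 ± 0.18 (adjusted p = 0.00467), with an adjusted p of 0.0726 without GFP mouse 3. Slc17a6 (VGLUT2) was lower, at 12.2, 22.2 and 35.3 CPM in L5-6, against 97.5, 115 and 133 CPM in L2-3, with 79.2, 98.9 and 114 CPM in L4 (log2 fold change -2.38 ± 0.18, adjusted p = 8.48e-05). The calcium sensor Syt9 was lower as well. Syt9 differed by a log2 fold change of -1.04 ± 0.11 (adjusted p = 3.56e-04).

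Guidance genes were found on both sides. Of 31 semaphorin, plexin and neuropilin genes 9 were higher and 8 lower (8 and 4 without GFP mouse 2, 5 and 4 without GFP mouse 3), with a median of 0.092. Sema3e, a secreted semaphorin of deep layers, had 18.98, 30.7 and 23.7 CPM in L5-6, against 4.85, 5.41 and 6.82 CPM in L2-3 (log2 fold change 2.09 ± 0.17, adjusted p = 1.20e-04). Sema5b had 85.6, 59.5 and 54.98 CPM in L5-6, against 27.8, 26.3 and 29.1 CPM in L2-3. For Sema5b the log2 fold change was 1.24 ± 0.15 (adjusted p = 7.98e-04). Sema3a, a repellent of axons, was lower at 15.3, 23.3 and 28.5 CPM in L5-6, against 29.1, 45.1 and 51.4 CPM in L2-3 (log2 fold change -0.90 ± 0.10, adjusted p = 5.43e-04, with an adjusted p of 0.0557 without the mouse as a block), and so was the plexin Plxna4. For Plxna4 the log2 fold change was -0.64 ± 0.08 (adjusted p = 8.07e-04), with an adjusted p of 0.161 without the mouse as a block. Of 38 genes of ephrins, Slits, netrins and their receptors 7 were higher and 18 lower (6 and 10 without GFP mouse 2, 5 and 8 without GFP mouse 3), with a median of -0.37. Efnb2, a membrane-bound ephrin ligand, had 49.5, 67.5 and 69.2 CPM in L5-6, against 104, 150.5 and 165 CPM in L2-3. Efnb2 differed by a log2 fold change of -1.16 ± 0.09 (adjusted p = 7.25e-05). Neo1, a receptor of netrin and RGM proteins, had 268, 334 and 357 CPM in L5-6, against 394, 739.5 and 692 CPM in L2-3 (log2 fold change -0.88 ± 0.11, adjusted p = 8.63e-04). Epha4, an ephrin receptor, had 145, 245 and 229.6 CPM in L5-6, against 275, 429 and 342 CPM in L2-3. For Epha4 the log2 fold change was -0.77 ± 0.08 (adjusted p = 4.21e-04), with an adjusted p of 0.102 without the mouse as a block. The receptors Ephb1 and Epha10 were higher (log2 fold change 0.88 ± 0.08, adjusted p = 2.33e-04, and log2 fold change 1.45 ± 0.16, adjusted p = 5.02e-04).

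Adhesion genes went both ways. Of 27 cadherin and protocadherin genes 8 were higher and 8 lower, with a median of -0.08. Cdh9 had 21.3, 30.9 and 25.1 CPM in L5-6, against 3.83, 4.62 and 7.65 CPM in L2-3 (log2 fold change 2.29 ± 0.19, adjusted p = 1.09e-04), Cdh18 had 20, 34.7 and 22.95 CPM in L5-6, against 5.25, 4.96 and 6.69 CPM in L2-3 (log2 fold change 2.18 ± 0.20, adjusted p = 1.90e-04) and Cdh24 had 35.9, 29.9 and 36.2 CPM in L5-6, against 10.4, 8.56 and 10.1 CPM in L2-3 (log2 fold change 1.81 ± 0.14, adjusted p = 8.57e-05). Pcdh8 was lower, at 20.2, 22.4 and 26.4 CPM in L5-6, against 45.1, 78.03 and 86.3 CPM in L2-3. Pcdh8 differed by a log2 fold change of -1.57 ± 0.14 (adjusted p = 2.03e-04). Of 36 contactins, neurexins and partners 9 were higher and 10 lower (8 and 6 without GFP mouse 2, 8 and 4 without GFP mouse 3), with a median of -0.11. Beside Nxph3 and Nxph4, Cntnap1, which organizes the junction of axon and myelin beside the node of Ranvier, had 35.02, 45.4 and 42.7 CPM in L5-6, against 15.5, 10.6 and 10.8 CPM in L2-3 (log2 fold change 1.75 ± 0.17, adjusted p = 2.41e-04). Flrt2, a guidance receptor with leucine-rich repeats, had 75.5, 96.9 and 99.7 CPM in L5-6, against 33.9, 46.9 and 54 CPM in L2-3. For Flrt2 the log2 fold change was 1.03 ± 0.08 (adjusted p = 9.24e-05).

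Secreted signals and the matrix were also split. Of 17 genes of the retinoic acid pathway 3 were higher and 4 lower (2 and 2 without GFP mouse 2), with a median of -0.092. Aldh1a2 and the binding protein Crabp2 (0.293, 0.421 and 0.204 CPM in L5-6, against 1.14, 10.2 and 10.2 CPM in L2-3; log2 fold change -4.49 ± 0.50, adjusted p = 5.20e-04, with a log2 fold change of -3.79 without GFP mouse 3) were lower, and Crabp1, another binding protein, was higher (7.69, 1.68 and 3.72 CPM in L5-6, against 0.286, 0.451 and 0.383 CPM in L2-3; log2 fold change 3.37 ± 0.45, adjusted p = 0.00127, with a log2 fold change of 2.61 without GFP mouse 1 and 4.03 without GFP mouse 2). Of 32 Wnt pathway genes 6 were higher and 7 lower (8 and 12 without GFP mouse 1, 3 and 2 without GFP mouse 3), with a median of -0.20. The ligand Wnt4 had 8.79, 13.9 and 14.03 CPM in L5-6, against 27.2, 29.1 and 31.9 CPM in L2-3 (log2 fold change -1.28 ± 0.13, adjusted p = 3.56e-04), the receptor Fzd10 was lower (log2 fold change -1.03 ± 0.13, adjusted p = 0.00101) and the secreted Dkk3 was higher (157, 207 and 152 CPM in L5-6, against 76.1, 131 and 77.6 CPM in L2-3; log2 fold change 0.88 ± 0.11, adjusted p = 7.16e-04).

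Of 40 growth factor genes 9 were higher and 12 lower (5 and 8 without GFP mouse 3), with a median of -0.085. Bmp2, a ligand of the BMP family, was lower at 2.198, 3.28 and 4.49 CPM in L5-6, against 11.1, 10.6 and 17.5 CPM in L2-3 (log2 fold change -1.96 ± 0.16, adjusted p = 1.01e-04). Ngfr, the low-affinity neurotrophin receptor, had 5.71, 13.1 and 7.19 CPM in L5-6, against 1.54, 2.59 and 2.23 CPM in L2-3. Ngfr differed by a log2 fold change of 1.99 ± 0.18 (adjusted p = 1.84e-04). Igfbpl1 had 20.1, 16.3 and 12.4 CPM in L5-6, against 2.06, 4.28 and 3.38 CPM in L2-3 (log2 fold change 2.32 ± 0.27, adjusted p = 6.49e-04). Of 28 matrix proteoglycan genes 5 were higher and 7 lower (8 and 11 without GFP mouse 1), with a median of -0.11 (0.023 without GFP mouse 2). The heparan sulfate sulfotransferases Hs3st4 (153, 209 and 167 CPM in L5-6, against 45.4, 43.5 and 28.1 CPM in L2-3; log2 fold change 2.20 ± 0.17, adjusted p = 9.04e-05) and Hs3st2 (log2 fold change 1.72 ± 0.16, adjusted p = 2.46e-04) were higher, and the hyaluronan synthase Has3 (8.57, 18.6 and 15.6 CPM in L5-6, against 30.5, 44.96 and 51.9 CPM in L2-3; log2 fold change -1.59 ± 0.12, adjusted p = 7.84e-05) and the glypican Gpc3 (log2 fold change -2.79 ± 0.29, adjusted p = 3.35e-04) were lower.

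Of 25 genes induced by neuronal activity 8 were higher and 3 lower (5 and 3 without GFP mouse 3), with a median of 0.14. Nr4a3, a nuclear receptor, had 39.8, 81.9 and 40.7 CPM in L5-6, against 5.48, 13.9 and 9.12 CPM in L2-3. For Nr4a3 the log2 fold change was 2.52 ± 0.14 (adjusted p = 2.19e-05). Fosl2, a partner of Jun, had 49.1, 79.6 and 59.4 CPM in L5-6, against 14.3, 19.3 and 17.5 CPM in L2-3 (log2 fold change 1.87 ± 0.13, adjusted p = 5.28e-05). Egr3, a zinc-finger factor, was lower at 18.98, 24.7 and 27.03 CPM in L5-6, against 36.5, 49.5 and 61.2 CPM in L2-3. Egr3 differed by a log2 fold change of -1.05 ± 0.08 (adjusted p = 9.33e-05). Fos, Egr1 and Npas4, which define the response, had log2 fold changes of 0.53, 0.14 and 0.052 and were not called.

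Of 4 lists of general functions, that of mitochondrially encoded genes had the median farthest from 0. Of 16 genes of dividing cells 0 were called by edgeR, 2 had an unadjusted p under 0.05 and 1 was called higher by DESeq2, with a median of 0.16 (-0.060 without GFP mouse 1), and Mki67 had the largest log2 fold change among them, 0.51 ± 0.18 (adjusted p = 0.0727). Of 22 genes of cholesterol synthesis 2 were higher, Lss (log2 fold change 0.45 ± 0.10, adjusted p = 0.0149, with an adjusted p of 0.126 without GFP mouse 3, 0.0832 in the 6 libraries alone and 0.0596 without the mouse as a block) and Insig1 (log2 fold change 0.29 ± 0.08, adjusted p = 0.0308, with an adjusted p of 0.0792 without GFP mouse 2, 0.228 without GFP mouse 3, 0.135 in the 6 libraries alone and 0.265 without the mouse as a block), with a median of 0.053 (1 and 0 without GFP mouse 2, 0 and 0 without GFP mouse 3). The 2 higher cholesterol genes are near the share of 12.0% over all tested genes. Of 25 ribosomal protein genes 6 were lower, and the median was -0.19 (0 and 15 without GFP mouse 1, 0 and 0 without GFP mouse 2, 0 and 0 without GFP mouse 3). All 25 had a log2 fold change below 0, against 8002 of the 15698 tested genes. Of 7 mitochondrially encoded genes 5 were higher, with a median of 0.35 (3 and 0 without GFP mouse 2, 0 and 0 without GFP mouse 3). These calls were lost with the 6 libraries alone and without the mouse as a block. The other 6 listed genes were at 0 in each L5-6 and L2-3 library of the GFP mice. Mouse 1 had the highest level of mt-Cytb in both layers, at 12855, 7741 and 9187 CPM in L5-6, against 9723, 6844 and 6478 CPM in L2-3. For mt-Cytb the log2 fold change was 0.36 ± 0.09 (adjusted p = 0.0217), with an adjusted p of 0.363 without GFP mouse 3, 0.131 in the 6 libraries alone and 0.459 without the mouse as a block.

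The L4 libraries of the same mice, which entered the fit but not the contrast, lay nearer to L2-3 than to L5-6. Of the 1889 genes higher in L5-6, the mean log2 CPM of L4 lay between those of L5-6 and L2-3 for 1348 (71.4%), at or beyond L2-3 for 487 (25.8%) and at or beyond L5-6 for 54 (2.86%), and it was nearer to L2-3 for 1386 (73.4%). Of the 1677 genes lower in L5-6, L4 lay between for 885 (52.8%), at or beyond L2-3 for 489 (29.2%) and at or beyond L5-6 for 303 (18.1%), and nearer to L2-3 for 1093 (65.2%). Tle4, Foxp2, Cplx3 and Nxph3 had L4 values closer to L2-3, and the meningeal genes Aldh1a2, Dcn and Ptgds had L4 values closer to L5-6, at 1.38 ± 1.23 CPM, 4.16 ± 3.18 CPM and 21.1 ± 17.3 CPM in L4. Since the L2-3 values are part of both the call and this place, the shares are a description.

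The 3 FOXP2 mice share no library with the GFP mice. They are other animals and received another plasmid, so animal, dissection and plasmid cannot be told apart between the groups. Of the 719 genes higher by at least 2-fold in L5-6 of GFP mice, the L5-6 over L2-3 ratio was above 1 in all 3 FOXP2 mice for 514 (71.5%), and of the 530 lower by at least 2-fold it was below 1 in all 3 for 465 (87.7%). For all 1889 and 1677 called genes these numbers were 1243 (65.8%) and 1192 (71.1%). Over all 15698 tested genes, called or not, the sign of the GFP fold change was found in all 3 FOXP2 mice for 7087 (45.1%). For the genes higher by at least 2-fold, the median log2 ratio in FOXP2 mice was 0.87, beside a median fitted log2 fold change of 1.56 in GFP mice. For the lower ones these medians were -1.92 and -1.57. The genes were picked by their fold change in the GFP mice, which favours large values there, and the measures differ. These medians thus cannot show whether the layer difference was weaker or stronger in FOXP2 mice. Tle4 had log2 ratios of 1.69 and 2.50 in the huFOXP2 mice and 1.77 in the moFoxp2 mouse, and Pou3f2 of -1.23 and -1.55 in the huFOXP2 mice and -0.67 in the moFoxp2 mouse. Mobp had 7.09 and 4.15 in the huFOXP2 mice and 6.11 in the moFoxp2 mouse, Cplx3 3.81 and 5.57 in the huFOXP2 mice and 3.95 in the moFoxp2 mouse and Fezf2 4.35 and 5.20 in the huFOXP2 mice and 3.12 in the moFoxp2 mouse. For these 5 genes the sign was that of the GFP mice in each mouse. Foxp2 had log2 ratios of 0.97 and 0.57 in the huFOXP2 mice and 1.71 in the moFoxp2 mouse, below its log2 ratios of 5.04, 3.37 and 3.30 in the GFP mice. In L5-6 it had 39.7, 77.85 and 69.5 CPM in the FOXP2 mice, in this order, against 61.6, 68.6 and 52.4 CPM in the GFP mice. In L2-3 it had 20.2, 52.4 and 21.2 CPM, against 1.77, 6.54 and 5.23 CPM. The L2-3 values were thus higher in the FOXP2 mice, while the L5-6 values overlapped. In the FOXP2 mice a FOXP2 plasmid was introduced, so endogenous and introduced transcripts cannot be told apart. Susd5, Gabra4 and Laptm5 had the opposite sign in each FOXP2 mouse.

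**Figure D5:**
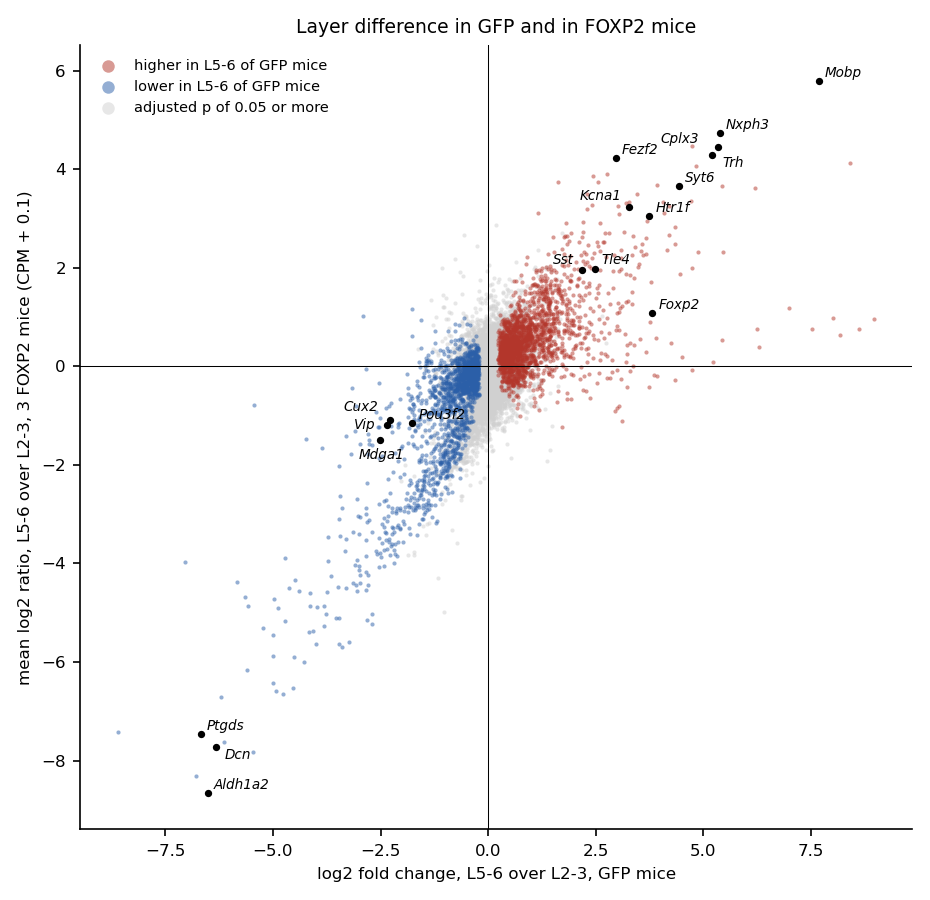
Log2 fold change of L5-6 over L2-3 in the 3 GFP mice (horizontal axis) against the mean log2 ratio of CPM + 0.1 in the 3 FOXP2 mice (vertical axis) for the 15698 tested genes, coloured by the call in GFP mice, with 18 named genes in black. Most called genes lie in the lower left and upper right of the plot, and 9 of the 18 genes with log2 fold changes above 5 in GFP mice lie between -1 and 1 in FOXP2 mice.

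The summed level of the myelin list in huFOXP2 mice 1 and 2 and the moFoxp2 mouse was 1421, 1832 and 2362 CPM in L5-6 and 741, 565 and 802 CPM in L2-3, and that of the meningeal list 240.1, 179 and 199 CPM in L5-6 and 5492, 3927 and 2042 CPM in L2-3, both on the side seen in GFP mice. The list of oligodendrocyte precursors had 1128, 1155 and 1332 CPM in L5-6 and 1194, 980.4 and 1411 CPM in L2-3. It was lower in L5-6 in huFOXP2 mouse 1 and the moFoxp2 mouse and higher in huFOXP2 mouse 2, while it was higher in each GFP mouse. The astrocyte list had 7304, 6304 and 6478 CPM in L5-6 and 8447, 6603 and 9526 CPM in L2-3 and the microglia list 893, 799 and 881 CPM in L5-6 and 913, 873 and 1130.0 CPM in L2-3, which is lower in L5-6 in each of the 3 mice. The list of choroid plexus and ependyma had 15.5, 28.4 and 19.7 CPM in L5-6 and 40.6, 38.5 and 52.1 CPM in L2-3, also lower in L5-6 in each, while it was higher there in each GFP mouse. Foxj1 had log2 ratios of -0.29 and 0.24 in the huFOXP2 mice and -0.44 in the moFoxp2 mouse, and Ntsr2 of -0.082 and 0.89 in the huFOXP2 mice and -0.30 in the moFoxp2 mouse. Among the neuronal lists, the median log2 ratio of that of layer 4 was 1.10 and 0.78 in the huFOXP2 mice and 0.30 in the moFoxp2 mouse, against -0.93, -0.67 and 0.05 in GFP mice 1, 2 and 3. That of the neurofilament and axon transport list was 0.18 and 0.07 in the huFOXP2 mice and 0.11 in the moFoxp2 mouse, against -0.64, -0.08 and -0.14 in the GFP mice. These differences between the groups were not tested. How far the amount of meninges, white matter and ventricular wall taken with a strip set these levels was not tested.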

How the data were processed

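Total RNA of dissected cortical layers was sequenced from TruSeq libraries, per the labels. The deposited table holds counts per gene for 18 libraries; per the submitters' processing notes the authors used STAR, HTSeq and mm10. The sources used here do not give versions, gene models or the strand setting. Positions and overlaps came from GENCODE M21 (GRCm38), which matched 53229 of 54446 IDs with their version and 54409 without it. Of 171 genes named with a value, 79 overlap another annotated gene, and reads of such pairs cannot be told apart.

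The counts of the 9 GFP libraries were fitted with edgeR 4.0.16 in R 4.3.3 (TMM, filterByExpr with minimum counts of 10 per library and 15 in all, quasi-likelihood test, mouse as a block, 4 residual degrees of freedom). The 3 L4 libraries share the estimate of the spread. The contrast was L5-6 minus L2-3, adjusted by Benjamini and Hochberg over the 15698 genes at 0.05, and the SE is the log2 fold change divided by the root of F. CPM used TMM factors over 18 libraries, and ratios within a mouse used CPM + 0.1. The fit was tested on simulated counts. The labels pool each layer by mouse, so replicate numbers pair the libraries. Deviations from the layer means (log2 of CPM + 1) correlated at 0.27, 0.33 and 0.53 between layers of the same mouse and at -0.28 to -0.08 between mice. Centring on 3 mice draws the values between mice below 0 where those within a mouse are positive. The negative values are thus not separate support for the pairing. No 2 libraries held identical counts.

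Alternatives were RLE and upper-quartile factors, no filter, DESeq2 1.42.0, the 6 libraries alone, all 18 libraries, no block and each mouse left out. The genes and lists were chosen with earlier results of these data known. Named are 10 layer genes and the 10 genes of largest fold in each direction. The latter had a mean of at least 5 CPM, the same sign in 3 mice and no predicted-gene name. For each list up to 5 called genes by smallest p were added, with up to 2 in the rarer direction. These list genes also had to have the same sign in 3 mice, so their agreement between mice is not a result. Bdnf, Bhlhe22, Ccdc153, Gad2, Lhx1, Neurod1, Oprk1, Slc17a7, Sox5 and Tmem212 were chosen after their values were seen. Genes below the filter were not tested, among them Opalin, Nkx6-2, Otx2, Folr1, Isl1 and Lhx5. Intervals cover counting error only. Results for a few genes that the rule covers are not reported here.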

Additional observations from a re-analysis of the deposited data

Results flagged for a closer look

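For 3 named genes the layer difference had 1 sign in every GFP mouse and the other in every FOXP2 mouse, and the difference between the groups passed the threshold in the fit of all 18 libraries (edgeR quasi-likelihood test, Benjamini-Hochberg over all genes). The genes were picked by these signs in the same mice, so the p-values are not separate support. How many of all tested genes change sign in this way was not counted. For Susd5, of the oligodendrocyte precursor list, the log2 ratios of L5-6 over L2-3 were 1.70 and 0.78 in the huFOXP2 mice and 0.47 in the moFoxp2 mouse, against -1.03, -0.54 and -0.14 in the GFP mice (difference of 1.60 ± 0.34, adjusted p = 0.0129). For Laptm5, a lysosomal membrane protein of microglia and other immune cells, they were -0.22, -0.19 and -0.48, against 0.84, 0.30 and 0.57 in the GFP mice (difference of -0.88 ± 0.24, adjusted p = 0.0287). The summed microglia list was lower in L5-6 in the 3 FOXP2 mice, against higher in GFP mice 1 and 3 and lower in GFP mouse 2, and its part in this result was not tested.

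Gabra4 encodes a subunit of the GABA-A receptor. Its ratios were 0.75 and 0.24 in the huFOXP2 mice and 0.43 in the moFoxp2 mouse, against -0.77, -0.50 and -0.26 in the GFP mice (difference of 0.99 ± 0.17, adjusted p = 0.0095). In the GFP mice alone, the call of each of these 3 genes was lost under at least 1 of the alternatives.

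For 3 lists the layer difference also had 1 sign in every GFP mouse and the other in every FOXP2 mouse, and these differences were not tested. The median log2 ratio of the microglia list was -0.09 and -0.12 in the huFOXP2 mice and -0.40 in the moFoxp2 mouse, against 0.86, 0.15 and 0.51 in the GFP mice (difference of the means -0.71). For the neurofilament and axon transport list the mean of the medians was 0.12 in the FOXP2 mice, against -0.29 in the GFP mice (difference 0.41). The log2 ratio of the summed level of the choroid plexus and ependyma list was -1.39 and -0.44 in the huFOXP2 mice and -1.41 in the moFoxp2 mouse, against 1.64, 0.65 and 0.24 in the GFP mice (difference of the means -1.92).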

How the results depend on the processing

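With the mouse as a block, 1889 genes were higher in L5-6 and 1677 lower. Without the replicate block 760 and 684 were called, all of them among the first, and with the 6 libraries alone 977 and 693, of which 975 and 693 were among the first. Leaving out GFP mice in turn gave 630 to 2615 higher and 494 to 2647 lower genes, and 486 to 777 higher and 341 to 727 lower by at least 2-fold. RLE and upper-quartile factors, DESeq2, no filter and all 18 libraries moved each of the 4 counts by less than 1.5 times. The number of genes and libraries in the fit differs between these settings by construction.

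Of 186 genes chosen by the rule, none turned its sign under any alternative. The call was lost for 43 without the replicate block, 32 without GFP mouse 3, 22 with the 6 libraries alone, 21 without GFP mouse 2, and 2 or fewer under each other alternative. The pairing comes from the design, so the block is the fitted analysis. Medians of 31 of 38 lists kept their sign throughout, and 7 changed it with a mouse left out. With the mice left out in turn, the median was -0.0649 to 0.0798 for projection neuron fate factors, -0.0478 to 0.1679 for potassium channels, -0.0222 to 0.1422 for sodium and calcium channels, -0.0724 to 0.0677 for GABA receptors and -0.0648 to 0.2188 for vesicle release. That of the matrix proteoglycans was 0.0234 without replicate 2 and down to -0.1809 with another mouse left out, and that of dividing cells -0.0601 without replicate 1 and up to 0.3038 with another left out. The share of higher genes with L4 between was 68.71% without replicate 3 and at most 72.0% with another mouse left out, and that of lower genes was 51.34% to 55.1%. In FOXP2 mice the mean ratio had the GFP sign for 85.0% of higher and 83.0% of lower genes, against 64.9% of all tested genes. The shares of higher and lower genes were 86.66% and 86.4% without huFOXP2 mouse 1 and 78.93% and 79.01% without huFOXP2 mouse 2. That of lower genes was 85.27% without the moFoxp2 mouse. The causes were not tested.

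With 3 mice and 4 residual degrees of freedom, smaller differences were not detectable, and an adjusted p over the threshold does not show equal levels. Genes with few counts in 1 layer, such as Fam180a, Slc22a6 and Mobp, have folds limited by those counts.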

Other observations

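Of 18 genes with a log2 fold change above 5 in L5-6 of GFP mice, 9 had a mean log2 ratio between -1 and 1 in FOXP2 mice. The 18 genes were picked by their size in the GFP mice, which favours larger values there. Among these 18 are the cilia genes Ak7, Ccdc153 and Tmem212. Ak7 had log2 ratios of -0.17 and 0.96 in the huFOXP2 mice and 0.84 in the moFoxp2 mouse, against 5.07, 4.57 and 3.53 in the GFP mice. In the FOXP2 mice, in this order, it had 0.136, 0.605 and 0.210 CPM in L5-6 and 0.166, 0.263 and 0.073 CPM in L2-3. These levels are near the 0.1 CPM added to each value, which weighs on the ratios.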
